A study of Mus musculus with 2 samples.

Results

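Messenger RNA of 10 genes that make and use microRNAs was compared between decitabine-treated and control CT26 cells. The genes were the Argonautes Ago1, Ago2, Ago3 and Ago4, the nucleases Dicer1 and Drosha, their partners Tarbp2 and Dgcr8, the exporter Xpo5 and the Argonaute partner Tnrc6a. They were listed by symbol for their role, no measured value entering the rule, although earlier results of these data were known at the time. Each symbol was matched to its Ensembl identifier through the GENCODE mouse M21 annotation. They make up 10 of the 24223 genes counted, and all 10 were among the 13545 genes that reached 1 CPM (counts per 1000000 of the library) in at least 1 library, called the genes tested below.

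CT26 is a colon carcinoma line of BALB/c mice. Decitabine (DAC) is a deoxycytidine analog that enters DNA and traps the DNA methyltransferases. The DAC cells received 1 μM DAC in 3 daily medium changes, 24 h apart, followed by 24 h in drug-free medium, and the Ctrl cells went through the same schedule without DAC. There was 1 library per group, from a single cell line in culture, so no difference below has a replicate check, no test of significance was possible, and the effect of DAC cannot be told apart from other differences between the 2 cultures or libraries.

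MicroRNAs are cut from hairpins in longer transcripts. In the nucleus the Microprocessor, made of the nuclease Drosha and its RNA-binding partner Dgcr8, frees the hairpin, which Exportin-5 (Xpo5) carries to the cytoplasm. There Dicer1, with the partner protein TRBP (gene Tarbp2), trims it to a short duplex, and 1 strand is held by an Argonaute protein, which pairs with target mRNAs through the microRNA seed and recruits Tnrc6 (GW182) proteins and the deadenylases that shorten the mRNA tail.

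Each ratio below is the CPM in DAC cells over the CPM in Ctrl cells, after scaling the libraries by the trimmed mean of M-values (TMM), and each is given with a 95% exact interval that covers counting error only. A gene was called higher or lower when its ratio was at least 2 or at most 0.5 and its interval lay on the same side of 1. By this rule 1 of the 10 genes, Ago3, was lower in DAC cells and 0 were higher, and the call for Ago3 was lost under library totals and after centring on GC content or on length. Across all genes tested the same rule called 5.29% lower and 10.8% higher. At 1.5-fold Ago3 stayed the single lower gene and Tarbp2 was the single higher one, where 15.2% of all genes tested were called lower and 19.3% higher. Under TMM scaling the intervals lay wholly above a ratio of 1 for Drosha, Dgcr8 and Tarbp2. They lay wholly below it for Ago2, Ago3, Dicer1 and Xpo5, while those of Ago1, Ago4 and Tnrc6a held 1. Under library totals and after length centring the intervals of Ago1 and Tnrc6a lay above 1 as well, after GC centring that of Tnrc6a did, and after length centring that of Dicer1 held 1. Such intervals are narrow for any well-counted gene. The share of all genes tested whose interval excludes 1 was not computed, so these positions cannot be read as a trait of the 10 genes.

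**Figure D1:**
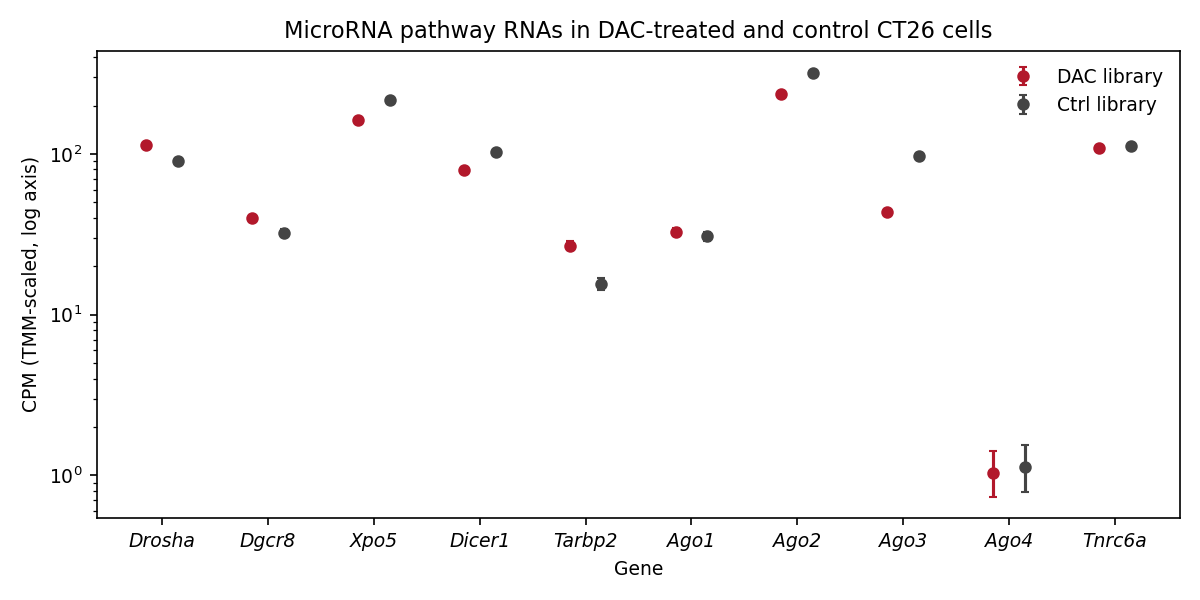
TMM-scaled CPM (log axis) of the 10 genes in the DAC library and in the Ctrl library, 1 point per library, ordered by role; bars are 95% counting intervals. Ago2 stood at 236 CPM in DAC cells and 317 CPM in Ctrl cells, Ago4 near 1 CPM in both, and Ago3 shows the widest gap, 43.5 CPM in DAC cells and 97.5 CPM in Ctrl cells.

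The libraries held 35163420 counts (DAC) and 34221886 counts (Ctrl), with 1570 genes at 0 in DAC and 3506 in Ctrl. Dividing by library totals in place of TMM raised every log2 ratio by 0.19 and moved the median of all genes tested to 0.18, with 1889 genes higher and 458 lower against 1468 and 716 under TMM. The colon epithelial markers found in the tables summed to 256 CPM in DAC cells and 74.9 CPM in Ctrl cells over 6 genes. Krt8 had 4445 counts in DAC cells and 5 in Ctrl cells, and the defining adhesion gene Cdh1 had 9 in DAC cells and 0 in Ctrl cells. The 4 mesenchymal markers summed to 3134 CPM in DAC cells and 7801 CPM in Ctrl cells, a gap that lies in Fn1 (1742 CPM in DAC cells and 6577 CPM in Ctrl cells), while Vim stood at 1297 CPM in DAC cells and 1128 CPM in Ctrl cells and Zeb1 and Cdh2 differed little. Markers of blood and vessel cells (Ptprc, Pecam1 and Cdh5) stayed at 12 counts or fewer in either library. The part of these marker differences in the ratios below was not tested, and fewer cells of a kind and less RNA per cell cannot be told apart in bulk RNA.

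The Microprocessor pair moved by nearly equal ratios that stayed well under 2-fold. Drosha, at chr15:12824815-12935291 on the plus strand (all gene positions are GRCm38), had 4290 counts (114 CPM) in DAC cells and 2898 counts (90.5 CPM) in Ctrl cells, a ratio of 1.26 (1.20 to 1.32). Dgcr8, at chr16:18253948-18289246 on the minus strand, had 1496 counts (39.8 CPM) in DAC cells and 1029 counts (32.1 CPM) in Ctrl cells, a ratio of 1.24 (1.14 to 1.34). The number of Dgcr8 counts per Drosha count, which no scaling between libraries can change, was 0.349 in DAC cells and 0.355 in Ctrl cells, and the ratio of these, 0.982, had an interval of 0.895 to 1.08. The balance between both subunits thus differed by less than the counting error, although the log2 difference of -0.03 became 0.14 after GC centring. Dgcr8 shares 10.7% of its exonic bases with exons on the opposite strand and 6.42% with exons on its own, Trmt2a among them, and since the strand setting of the counting is not given, its counts are the least certain of the pair.

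Dgcr8 mRNA is itself a Microprocessor substrate, since the complex is known to cut hairpins within it. The mature microRNAs of 2 hairpins in its exons are shown because they mark those sites, with the seed (bases 2 to 8) in capitals, as RefSeq gives them on GRCm38.p6, chromosome 16, minus strand. No 2 of them share a seed.
miR-1306-5p: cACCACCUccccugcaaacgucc
miR-1306-3p: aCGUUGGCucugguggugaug
miR-3618-5p: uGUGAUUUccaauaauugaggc
miR-3618-3p: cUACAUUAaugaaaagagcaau

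Xpo5 carries hairpins out of the nucleus together with the GTP form of Ran. It lies at chr17:46202782-46243598 on the plus strand and had 6069 counts (162 CPM) in DAC cells and 6917 counts (216 CPM) in Ctrl cells, a ratio of 0.748 (0.722 to 0.774). Set against Drosha within each library, Xpo5 had 1.41 counts per Drosha count in DAC cells and 2.39 in Ctrl cells, a ratio of 0.593 (0.559 to 0.629). On the log2 scale this difference was -0.75, and it was -0.73 after centring on GC content and -0.74 after centring on length, nearly the same value.

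Of the other export genes on a list of 4 (Xpo1, Ran, Xpot and Rcc1), 0 were called in either direction. Ran, the GTPase itself, stood at 989 CPM in DAC cells and 1076 CPM in Ctrl cells. The list's ratios ran from 0.726 for Xpo1, the exporter of proteins with a leucine-rich signal, to 1.64 for Rcc1, the exchange factor that loads Ran with GTP.

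Dicer1 and its partner gene Tarbp2 had ratios on opposite sides of 1. Dicer1, at chr12:104687742-104751952 on the minus strand, had 2999 counts (79.8 CPM) in DAC cells and 3285 counts (103 CPM) in Ctrl cells, a ratio of 0.778 (0.740 to 0.818). Its log2 ratio was -0.36, and -0.04 after length centring. Tarbp2, at chr15:102518192-102523676 on the plus strand, had 1009 counts (26.9 CPM) in DAC cells and 497 counts (15.5 CPM) in Ctrl cells, a ratio of 1.73 (1.55 to 1.93), short of the 2-fold rule. Of all genes tested, 85.9% had a lower ratio than Tarbp2. There were 0.336 Tarbp2 counts per Dicer1 count in DAC cells and 0.151 in Ctrl cells, a ratio of 2.22 (1.97 to 2.51), which on the log2 scale was 1.15, against 0.92 after centring on GC content and 0.80 after centring on length. Of the 50-base words in the longest Tarbp2 transcript, 11.7% also occur in other annotated genes, mainly the pseudogenes Gm18584 and Gm18561. Part of the Tarbp2 counts thus depends on how shared reads were assigned. Drosha against Dicer1, the nuclear and the cytoplasmic nuclease, stood at 1.43 counts per count in DAC cells and 0.882 in Ctrl cells, a ratio of 1.62 (1.51 to 1.74), which on the log2 scale was 0.70, against 0.54 after centring on GC content and 0.41 after centring on length.

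**Figure D2:**
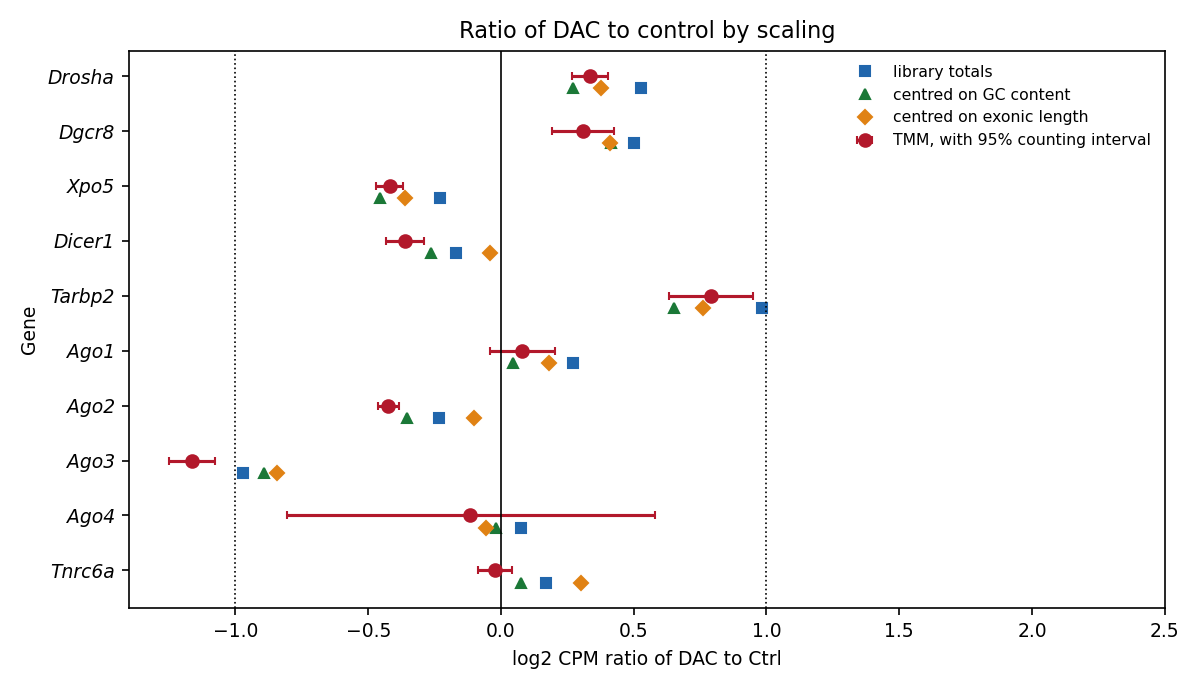
log2 ratio of DAC CPM to Ctrl CPM for each of the 10 genes with its 95% counting interval under TMM scaling, beside the values under library totals and after centring on GC content or exonic length; dotted lines mark 2-fold. Ago3 is past the lower line under TMM scaling (-1.16) but not under the other 3, and Tarbp2 lies just inside the upper line at 0.98 under library totals.

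The Argonautes hold the guide strand. Ago2 is the slicer of the family, and in mammals all 4 proteins bind microRNAs. Ago1, Ago3 and Ago4 lie side by side on chromosome 4, all on the minus strand, while Ago2 is on chromosome 15.

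Ago3, at chr4:126331704-126429556, had 1635 counts (43.5 CPM) in DAC cells and 3123 counts (97.5 CPM) in Ctrl cells. It was 2.24-fold lower in DAC cells (interval 2.11 to 2.38), a log2 ratio of -1.16, and 3.65% of all genes tested had a lower ratio. Ago1, at chr4:126435012-126468583, had 1221 counts (32.5 CPM) in DAC cells and 985 counts (30.8 CPM) in Ctrl cells, a ratio of 1.06 (0.971 to 1.15). The libraries thus differed for Ago3 by more than counting error, and for its neighbour Ago1 the interval held 1.

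Ago2, at chr15:73095844-73184935 on the minus strand, had 8883 counts (236 CPM) in DAC cells and 10154 counts (317 CPM) in Ctrl cells, a ratio of 0.746 (0.725 to 0.767). Its log2 ratio was -0.42, and -0.10 after length centring. Ago4, at chr4:126489541-126533472, was at the edge of detection, with 39 counts (1.04 CPM) in DAC cells and 36 counts (1.12 CPM) in Ctrl cells, and its ratio of 0.923 has an interval of 0.572 to 1.49, so a difference within that range was not detectable at this depth.

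Compared per length under TMM scaling, as CPM per kilobase of exon, the Argonautes summed to 23.6 in DAC cells and 32.4 in Ctrl cells. Sums and shares were not recomputed in other settings. The log2 ratio of Ago2, -0.42 under TMM, was -0.23 under library totals, -0.36 after GC centring and -0.10 after length centring. Ago2 made up 71.3% of the sum in DAC cells and 69.7% in Ctrl cells. Ago1 made up 16.9% in DAC cells and 11.7% in Ctrl cells, Ago3 11.1% in DAC cells and 18.1% in Ctrl cells, and Ago4 0.632% in DAC cells and 0.499% in Ctrl cells. Ago1 and Ago3 thus changed places in the order of levels, with 4.0 CPM per kilobase for Ago1 and 2.63 for Ago3 in DAC cells, against 3.79 for Ago1 and 5.89 for Ago3 in Ctrl cells.

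The lower level of Ago3 relative to Ago1 in DAC cells is also seen in counts within each library, where scaling drops out. By counts, however, Ago3 stayed above Ago1 in both libraries, so their change of order is seen per length only. There were 1.34 Ago3 counts per Ago1 count in DAC cells and 3.17 in Ctrl cells, a ratio of 0.422 (0.380 to 0.469). Against Ago2 there were 0.184 Ago3 counts per count in DAC cells and 0.308 in Ctrl cells, a ratio of 0.598 (0.560 to 0.640), which on the log2 scale was -0.74, against -0.54 after GC centring. Reads that could be traded between the paralogs are few, judged by the longest transcript of each. Of its 50-base words, 0.778% for Ago3 and 1.74% for Ago1 occur in another annotated gene.

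The call for Ago3 depended on how the ratios were centred. Its transcript is AT-rich and long, with a GC content of 41.8% and 16571 exonic bases. Genes tested with a like GC content had a median log2 ratio of -0.27, and those with the greatest exonic length, over 11843 bases, one of -0.32. After centring on these medians the log2 ratio of Ago3 was -0.89 by GC content and -0.84 by length, and under library totals it was -0.97, all short of 2-fold. The difference from Ago1 on the log2 scale was -1.24, and it was -0.94 after GC centring and -1.02 after length centring.

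**Figure D3:**
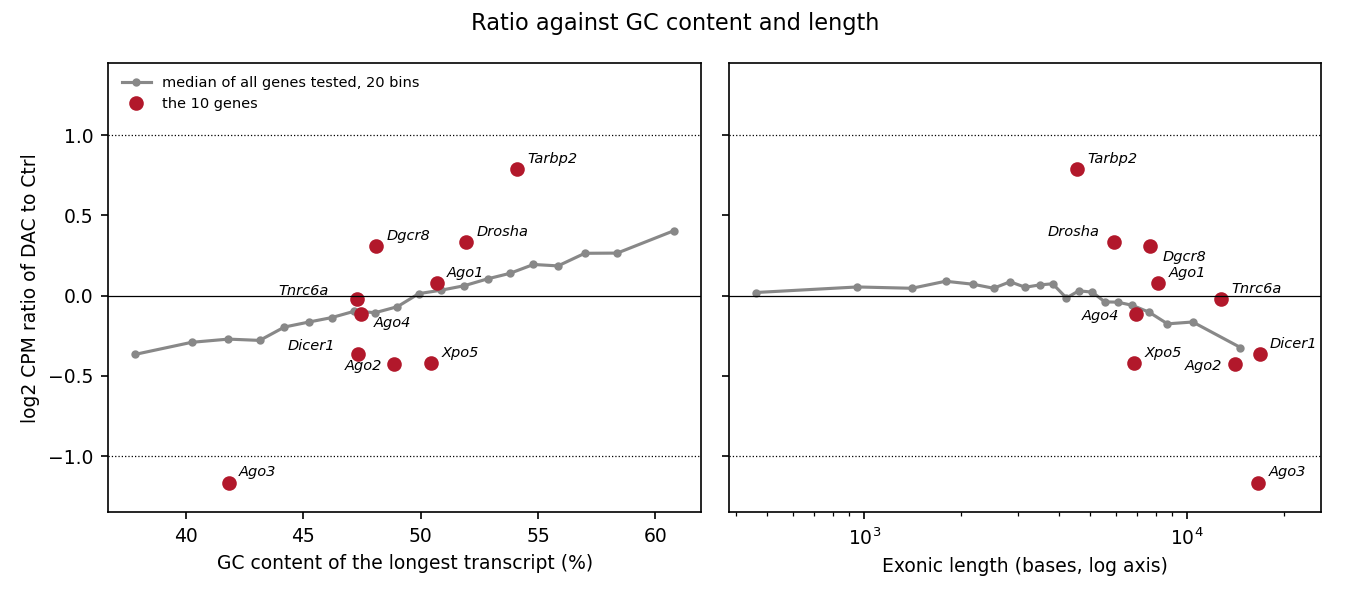
log2 ratio of DAC CPM to Ctrl CPM against GC content (%) and against exonic length (bases, log axis); the grey line joins the medians of all genes tested in 20 bins and red points are the 10 genes. The medians run from -0.37 in the bin lowest in GC to 0.41 in the highest, and Ago3 lies below the line in both panels.

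The promoters of the Argonaute cluster and of Tarbp2 are shown because the methyltransferases that DAC traps act on the cytosine of CpG, which here is in capitals; methylation was not analysed here. The windows are the bases before the RefSeq start on GRCm38.p6, stopped before the gene's own annotated exons, and run 5′ to 3′ on the strand of the gene. They are chr4:126429557-126429792 for Ago3 (minus, 25 CpG), chr4:126468632-126468881 for Ago1 (minus, 26 CpG), chr4:126533473-126533708 for Ago4 (minus, 42 CpG) and chr15:102517942-102518191 for Tarbp2 (plus, 18 CpG). Ago1 has another RefSeq start, whose overlapping window, chr4:126468584-126468833 (28 CpG), is not printed.
Ago3: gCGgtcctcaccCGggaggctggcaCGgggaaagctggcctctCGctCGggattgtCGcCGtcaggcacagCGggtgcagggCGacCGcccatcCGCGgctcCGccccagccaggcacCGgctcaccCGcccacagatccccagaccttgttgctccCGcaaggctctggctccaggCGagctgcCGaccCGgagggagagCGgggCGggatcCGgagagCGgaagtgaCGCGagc
Ago1: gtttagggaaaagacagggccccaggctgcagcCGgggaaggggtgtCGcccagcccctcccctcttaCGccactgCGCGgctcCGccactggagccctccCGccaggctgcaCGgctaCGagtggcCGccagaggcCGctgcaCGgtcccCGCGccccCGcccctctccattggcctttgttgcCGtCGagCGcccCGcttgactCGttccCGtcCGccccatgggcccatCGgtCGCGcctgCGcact
Ago4: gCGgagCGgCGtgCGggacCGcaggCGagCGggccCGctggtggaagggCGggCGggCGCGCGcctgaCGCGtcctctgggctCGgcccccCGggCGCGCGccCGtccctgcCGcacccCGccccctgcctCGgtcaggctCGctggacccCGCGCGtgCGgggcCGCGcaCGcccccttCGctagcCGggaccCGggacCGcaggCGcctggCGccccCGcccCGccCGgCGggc
Tarbp2: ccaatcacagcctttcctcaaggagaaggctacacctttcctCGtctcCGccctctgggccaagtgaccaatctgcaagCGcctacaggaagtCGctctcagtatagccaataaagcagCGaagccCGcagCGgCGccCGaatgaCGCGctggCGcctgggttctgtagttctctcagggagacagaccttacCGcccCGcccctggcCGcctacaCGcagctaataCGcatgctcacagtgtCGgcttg

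In the whole 250 bases before the start, Ago3 has 27 CpG, more than 91.4% of the 32851 promoters in the RefSeq table, whose median is 6. Of the 9 genes with an entry (all but Ago2), the counts run from 9 in Tnrc6a and 18 in Tarbp2 to 39 in Dicer1 and 46 in Ago4. On either strand, the GC box GGGCGG is found in all of the 9 but Drosha and Tnrc6a (32.7% of all promoters), and CCAAT in Ago1, Dicer1, Drosha, Dgcr8 and Tarbp2 (33.8%). The NRF1 core CGCATGCG, which itself holds CpG, is found in Xpo5 alone among them (1.55%), and TTTCCCGC, the E2F core, in none (0.895%). These are letter matches in 1 window and say nothing of binding.

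Tnrc6a links Argonaute to the deadenylases. At chr7:123123885-123195296 on the plus strand, it had 4118 counts (110 CPM) in DAC cells and 3563 counts (111 CPM) in Ctrl cells, a ratio of 0.985 (0.942 to 1.03). Its direction is not settled, because its log2 ratio was -0.02 under TMM, 0.17 under library totals and 0.30 after length centring. Its paralogs Tnrc6b and Tnrc6c had ratios of 0.774 (0.735 to 0.816) and 0.757 (0.715 to 0.801). Their log2 ratios were -0.37 and -0.40, where genes tested with a like exonic length, over 11843 bases, had a median of -0.32. Tnrc6b stood at 72.3 CPM in DAC cells and 93.4 CPM in Ctrl cells, and Tnrc6c at 60.3 CPM in DAC cells and 79.7 CPM in Ctrl cells.

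As a family the 10 genes stayed near the rest of the transcriptome. Their median log2 ratio was -0.07, against -0.02 over all genes tested, with 4 ratios above 1 and 6 below. Among the 7176 genes with a geometric mean of 20 to 300 CPM, a range that holds all of the 10 but Ago4, 93.9% lay within 2-fold and the log2 ratios ran from -0.89 at the 5th to 0.78 at the 95th percentile. Ago3, at -1.16, lies beyond the lower end of that span. Tarbp2, at 0.79, is only just past the upper end, and the others of the 10 in that range lie inside the span. Over all genes tested the same percentiles were -1.02 and 1.8, a span that holds Tarbp2. After GC centring the log2 ratios of Ago3 and Tarbp2 were -0.89 and 0.65, and the spans were not recomputed.

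The wider pathway was described with 9 lists that hold 96 genes besides the 10, of which 91 were in the tables and 85 reached the CPM minimum. Of these 85, 5 were higher in DAC cells and 0 were lower, beside 10.8% higher and 5.29% lower over all genes tested, with 42 ratios above 1 and 43 below and a median log2 ratio of -0.01. The higher genes were Piwil2, Trim71, Ncbp2, Mov10 and Mest, each in a different list. Piwil2, Trim71 and Mest reached 1 CPM in DAC cells only, at 0.968, 0.437 and 0.50 CPM in Ctrl cells. They thus passed the minimum through the library in which they were higher.

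Among 10 nuclear processing cofactors tested, Ncbp2, the small subunit of the nuclear cap-binding complex, was higher, with 1708 counts in DAC cells and 673 in Ctrl cells, a ratio of 2.16 (1.98 to 2.37). Ddx5, a helicase of the Microprocessor, stood at 867 CPM in DAC cells and 1449 CPM in Ctrl cells, and its ratio of 0.598 was the list's lowest. The 10 Dicer partners and Argonaute loading factors had 0 calls. Of their ratios 9 were above 1, with a median log2 ratio of 0.37, where 6595 of the 13545 genes tested had a ratio above 1 and the median was -0.02, and the list was not tested as a whole. The chaperone Hsp90ab1, which helps open Argonaute for its duplex, had the highest ratio, 1.79 (1.77 to 1.81), at 2479 CPM in DAC cells and 1382 CPM in Ctrl cells. Its co-chaperone Ptges3 had the lowest, 0.684.

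Downstream of Argonaute, 0 of 16 genes of the GW182 and deadenylation list were called. Their ratios ran from 0.600 for the deadenylase Cnot6l to 1.23 for Cnot11, and Pabpc1, the poly(A)-binding protein, had a ratio of 1.03. After GC centring the log2 ratio of Cnot6l was -0.37, and Cnot1 was the lowest at -0.45. Of 17 genes of decapping, decay and P-bodies, Mov10, a helicase found with Argonaute, was higher, with 2514 counts in DAC cells and 1005 in Ctrl cells, a ratio of 2.13 (1.98 to 2.30). Its call was lost after GC centring, at a log2 ratio of 0.83. Dcp1b, a decapping cofactor, had the lowest ratio, 0.625. Of 8 genes that modify or turn over Argonaute, Trim71, a ubiquitin ligase and let-7 target, was higher from few counts. It had 94 counts in DAC cells and 14 in Ctrl cells, a ratio of 5.72 (3.25 to 10.9). Csnk1a1, a kinase that acts on AGO2 in human cells, had the lowest ratio, 0.611. After GC centring the log2 ratio of Csnk1a1 was -0.43, above Zswim8 at -0.53 and Ankrd52 at -0.45. In the tailing and decay list 0 of 7 were called, and the ratios ran from 0.724 for the exonuclease Xrn2 to 1.35 for the deadenylase Parn.

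**Figure D4:**
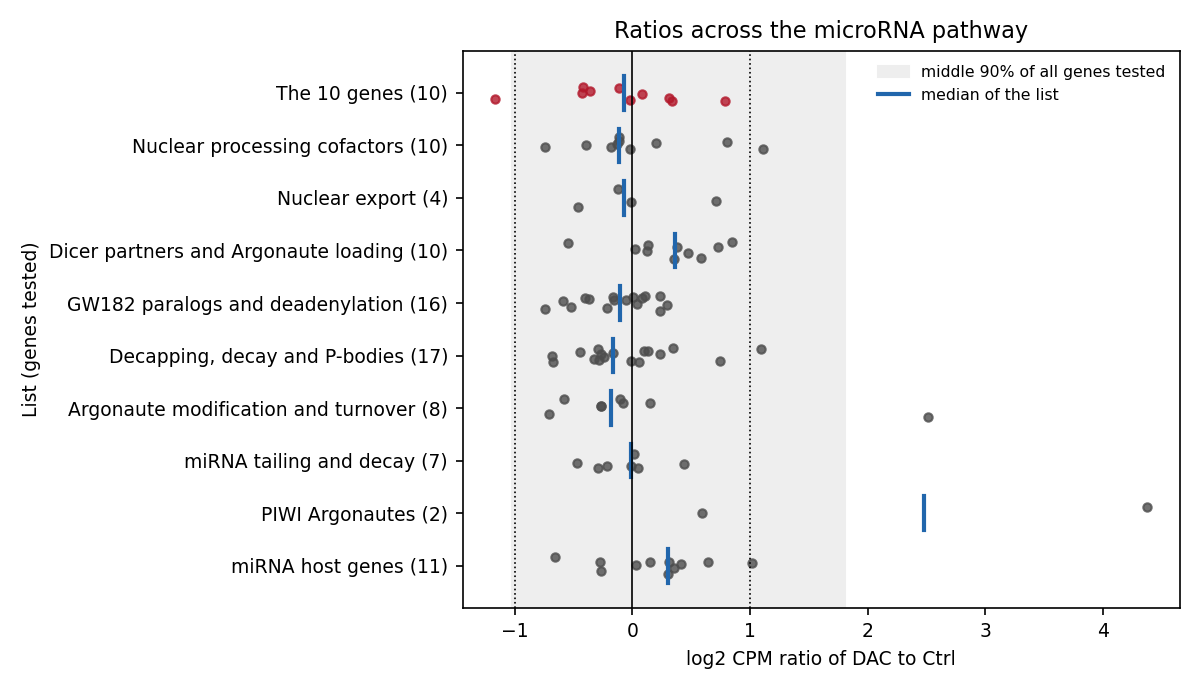
log2 ratio of DAC CPM to Ctrl CPM for the 10 genes and for the genes tested in each of the 9 lists, 1 point per gene; blue ticks are the medians of the lists, the grey band holds all genes tested between the 5th and the 95th percentile (-1.02 to 1.8), and dotted lines mark 2-fold. Piwil2 stands apart with a ratio of 20.8, and most other genes lie between the dotted lines.

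The PIWI proteins are the germline branch of the Argonaute family and bind piRNAs. Piwil2 had 755 counts (20.1 CPM) in DAC cells and 31 counts (0.968 CPM) in Ctrl cells, a ratio of 20.8 (14.5 to 30.8), above that of 99.1% of all genes tested. Per length it reached 3.80 CPM per kilobase in DAC cells, close to Ago1 at 4.0 and above Ago3 at 2.63, against 0.183 in Ctrl cells, where it was far below both. Piwil4 had 189 counts in DAC cells and 107 in Ctrl cells, a ratio of 1.51 (1.18 to 1.93), under the 2-fold rule.

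Of 11 microRNA host genes tested, Mest, an imprinted gene that hosts miR-335, was higher on few counts, with 38 in DAC cells and 16 in Ctrl cells, a ratio of 2.02 (1.10 to 3.89). Its call was lost after length centring, at a log2 ratio of 0.94, and when counts were divided by 3. Smc4, the host of miR-15b and miR-16, had the lowest ratio, 0.633. The poly(A)-selected libraries do not measure mature microRNAs, so host levels say nothing of processed product. Hosts of the miR-17 seed family are an example in which different transcripts carry 1 seed. Mir17hg had 610 counts in DAC cells and 332 in Ctrl cells, a ratio of 1.57 (1.37 to 1.8), and Mcm7 had 7623 counts in DAC cells and 6365 in Ctrl cells, a ratio of 1.02 (0.987 to 1.06). Below, miR-17-5p and miR-20a-5p come from Mir17hg and miR-93-5p and miR-106b-5p from Mcm7, with the shared seed in capitals, as RefSeq gives them.
miR-17-5p: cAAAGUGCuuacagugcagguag
miR-20a-5p: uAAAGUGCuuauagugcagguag
miR-93-5p: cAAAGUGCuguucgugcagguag
miR-106b-5p: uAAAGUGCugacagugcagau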

How the data were processed

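RNA of DAC-treated and control CT26 cells was sequenced after poly(A) selection, 1 library each. The authors deposited raw counts for each Ensembl gene. Tools named in the submitters' processing notes are STAR 2.5.3a and StringTie 1.3.1c, besides Cufflinks and DESeq, Trim Galore and FastQC, with the build mm10. The study's methods describe CASAVA, TopHat and Bowtie. Which route made the counts, and its strand setting, are not given in the sources used here.

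Symbols and exons came from GENCODE M21 (GRCm38, which mm10 names), where 24122 identifiers matched and 101 did not. R 4.3.3 with edgeR 4.0.16 gave TMM factors of 1.07 (DAC) and 0.936 (Ctrl), and Python 3.11.15 with numpy 2.4.6, scipy 1.17.1 and pandas 2.3.3 gave CPM, ratios and exact Clopper-Pearson intervals, which cover counting error only. Genes at 1 CPM or more in either library were tested on a fold of 2. The calculation was tested on simulated data. Figures were drawn with matplotlib 3.10.9.

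The genes and lists were chosen with earlier results of these data known. Named genes are the 10, their paralogs, and in each list those called, the most abundant and those at the ends of its ratios, although not all of them are described. The ends are those of the TMM ratios, and after GC centring other genes take some of these places. Some list members were not analysed here, Piwil1, Lin28a, Lin28b, H19 and Rian, and likewise some of the cell type markers. The ratios were recomputed with upper-quartile factors, with size factors of DESeq2 1.42.0, with library totals and with centring on 20 bins of GC content or of exonic length. Further settings were no filter, a minimum of 5 CPM, a fold of 1.5 and counts divided by 3. In every setting, the main one included, a 0 was placed at 3 counts for the ratio. Centring subtracts the median log2 ratio of the bin. Promoter and microRNA sequences are from RefSeq (GRCm38.p6), where 9 of the 10 genes had a promoter entry.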

Additional observations from a re-analysis of the deposited data

How the results depend on the processing

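No paired analysis was possible because each group has 1 library, and for the same reason no replicate could be left out. The count of the 10 genes called lower, 1 (Ago3), was 0 under library totals, after GC centring and after length centring, and the count called higher, 0, was 1 (Tarbp2) at a fold of 1.5. The median log2 ratio of the 10 genes was 0.12 under library totals, 0.07 after length centring and 0.01 after GC centring, against -0.07. Over all genes tested the medians in these settings were 0.18, 0 and 0.0002, against -0.02. Among the pathway lists, the 5 genes called higher became 8 with no filter, 3 at a minimum of 5 CPM and 12 at a fold of 1.5, and the 0 called lower became 7 at a fold of 1.5. Over all genes the 1468 called higher became 2672, 684 and 2612 in these settings, and the 716 called lower became 2059 at a fold of 1.5. The lists' median log2 ratio, -0.01, was 0.18 under library totals and 0.12 after GC centring, beside 0.18 and 0.0002 over all genes tested. Over 7 scaling and filter alternatives (6 for Ago4, which a minimum of 5 CPM removes), the sign of the log2 ratio changed for Ago4 (in 1) and Tnrc6a (in 4). It held for the other members. The settings with no filter and with a minimum of 5 CPM leave each ratio as it was, so they could not change a sign. Ago4 is the gene for which depth limits most, with 39 counts in DAC cells and 36 in Ctrl cells.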

Other observations

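Within 200 kb of the Argonaute cluster on chromosome 4, 10 other genes were tested, and Eva1b was the single one called (over all genes tested 10.8% were called higher and 5.29% lower), with 807 counts in DAC cells and 193 in Ctrl cells, a ratio of 3.56. The others ran from 0.628 (Stk40) to 1.49 (Adprhl2), all above the ratio of Ago3.

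Most genes annotated as microRNA precursors had few counts. Of 639 in the tables, 598 had fewer than 10 counts in both libraries, 257 had exactly 1 count in each, and 13 reached the CPM minimum. Of these 13, Gm22133 had 11334 counts in DAC cells and 10863 in Ctrl cells, Gm27597 had 6773 in DAC cells and 4855 in Ctrl cells, and Gm26377 had 5901 in DAC cells and 5995 in Ctrl cells. Gm47308, like these chosen after its values were seen, had 134 counts in DAC cells and 1 in Ctrl cells, a ratio of 114 with a counting interval of 20.1 to 4544. The annotations of Gm22133, Gm27597 and Gm26377 span only 109, 80 and 108 bases. Overlap of the 13 with exons of other genes was not examined, so their counts cannot be assigned to microRNA precursors. Of the 5 host genes in the tables below the minimum, Mir142hg, the host of miR-142, had 33 counts in DAC cells and 0 in Ctrl cells. Egfl7, the host of miR-126, had 14 in DAC cells and 0 in Ctrl cells, Mirg had 9 in DAC cells and 0 in Ctrl cells, Mir155hg had 2 in DAC cells and 1 in Ctrl cells, and Mir9-3hg had 0 in DAC cells and 3 in Ctrl cells.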
